A study of Mus musculus with 6 samples.

Results

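A set of 45 genes of glutathione conjugation and antioxidant defence was followed in mouse liver after short liraglutide treatment. They were chosen by role as a list of gene symbols, with earlier results of these data known. All 45 stand among the 23412 symbols of the read count table. Of these, 44 passed the low-count filter, and Gsta1, with between 0 and 5 reads per library, did not. RNA was sequenced from livers of C57BL/6J mice labelled as 8 weeks old, 3 libraries per group. Both groups ate a high-fat diet for 4 weeks and were then treated for 3 days, with liraglutide at 300 µg/kg injected under the skin in the group HFD_Lira3d and with PBS (phosphate-buffered saline) in the group HFD_PBS3d. Liraglutide is a long-acting drug that mimics the gut hormone GLP-1. Libraries are called Lira161, Lira162 and Lira164 and PBS155, PBS157 and PBS158 after the columns of the table. Whether each came from its own animal is not said in the labels, and p-values therefore measure only how these libraries spread, which may be technical.

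Glutathione is a tripeptide present at high concentration in hepatocytes, where it reduces peroxides and is joined to reactive compounds. Glutathione S-transferases (GSTs) catalyse that conjugation, and the cytosolic ones fall into classes named with Greek letters whose genes lie in tandem clusters. The transcription factor NRF2 (gene Nfe2l2), held in check by KEAP1, drives many of these genes by binding antioxidant response elements. Thioredoxins, peroxiredoxins and superoxide dismutases form parallel lines of defence, and the pentose phosphate pathway supplies part of the NADPH that keeps glutathione and thioredoxin reduced.

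Under liraglutide 8 of the 44 tested genes fell and 0 rose. Of the 8, 7 code for glutathione transferases (Gstt3, Gstm3, Gsta3, Gstm6, Gstt1, Gstk1 and Gsta4) and the other is Sod2, the mitochondrial superoxide dismutase. The falls ran from 4.77-fold for Gstt3 to 1.28-fold for Sod2. Genes are said to fall or rise where edgeR's quasi-likelihood test, adjusted over all 12626 tested genes, gave p under 0.05. Of all tested genes 8.77% were called (4.69% fell and 4.08% rose), against 18.2% of the 44 genes, all of them lower. Because the list was chosen with earlier results of these data known, setting these shares side by side is no test of it. At an unadjusted p below 0.05 edgeR had 7 of the 44 higher and 14 lower. The share of all tested genes at that level was not counted. DESeq2 called 3 genes of the list higher and 11 lower, and limma-voom 1 higher and 7 lower. Over all genes tested with them, DESeq2 called 12.2% and limma-voom 9%, in either direction. The median log2 fold change was -0.078 over the 44 genes and 0.011 over all tested genes. The calls moved with the libraries used: of the whole list, 1 gene was lower without Lira161, 1 without Lira162, 9 without Lira164, 5 without PBS155, 7 without PBS157 and 2 without PBS158. Over all tested genes the same fits called 462, 393, 1496, 962, 653 and 414 in either direction, against 1107 with all libraries. The counts of the list include genes that are not among the 8, namely Nfe2l2 and Gstm7 without Lira164, Prdx5 without PBS155 and Gstm7 without PBS157. Of the 8 genes, 0 were called in all 6 fits with a library left out. All 8 kept their direction in every fit in which they were tested. Each had every treated library below every control, so leaving out a library could hardly turn the direction, and this lends no support.

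**Figure D1:**
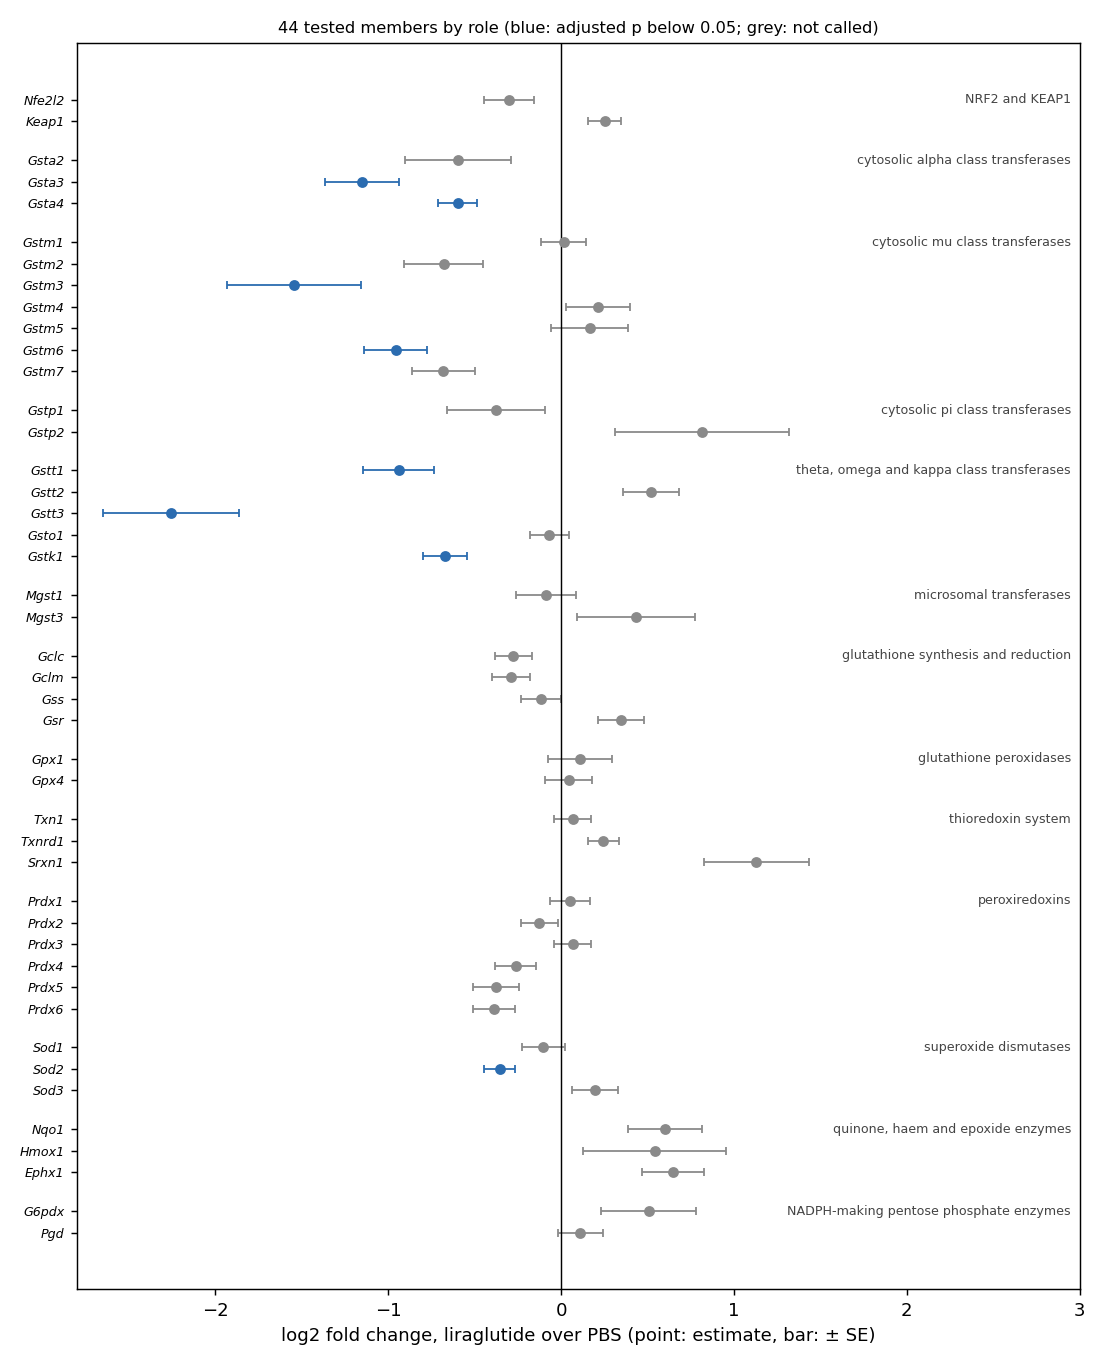
Log2 fold change of liraglutide over PBS (x axis) for the 44 tested genes, grouped by role, with the point at the edgeR estimate and the bar at 1 SE on either side. Blue points passed the adjusted p threshold and all lie left of 0, from Gstt3 at -2.26 to Sod2 at -0.36.

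Library totals lay between 20888991 and 27007182 reads, and the 45 genes together held between 0.999% and 1.22% of them. The 12 hepatocyte markers (Alb among them) were abundant, as the labelled tissue requires. Together they held 101780 to 118900 CPM (read counts scaled to a common library size by TMM) under liraglutide and 116140 to 136040 CPM under PBS. Of the 11 tested, Hnf4a was called higher and 6 had estimates below 0. Markers of other cells differed between the groups in part. The 12 liver endothelial markers summed to 271 to 422 CPM under liraglutide against 169.5 to 298 CPM under PBS, with Stab1 and Clec4g called higher, and the 14 Kupffer cell and macrophage markers to 310.5 to 486 against 141 to 545 CPM with none called. Estimates lay above 0 for all 12 endothelial markers (median log2 fold change 0.74) and for 13 of the 14 Kupffer cell and macrophage markers (median 0.53). Bile duct markers summed to 41.6 to 48.3 against 60.2 to 75.1 CPM (8 of 10 tested, all 8 with estimates below 0, 1 called, Spp1, lower). Stellate cell and fibroblast markers summed to 471 to 526 against 287 to 449 CPM (0 of 12 called, 9 estimates above 0 and 3 below). Fat cell markers summed to 9.12 to 23.1 against 6.38 to 7.30 CPM, with Retn and Ucp1 at 0. Of these 8, only 2 were tested. Fabp4 was called higher, and the other had a log2 fold change of -2.47, without overlap and without a call. Of 7 red blood cell markers, Hba-a1, Hba-a2, Hbb-b1 and Hbb-b2 were listed at 0 in every library. The rest summed to 17.8 to 40.0 against 77.5 to 91.1 CPM, and Alas2, the only 1 tested, was called lower. T and natural killer cell, B cell and neutrophil markers each summed to at most 6.19 CPM in any library, and pancreatic acinar markers to at most 23.0 CPM. Of the 4 tested T and natural killer cell markers, Cd4 was called lower and the other 3 had estimates above 0. The part of these shifts in the results was not tested. In bulk tissue, fewer cells of a type and less RNA per cell cannot be told apart.

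The regulators did not pass the test. Nfe2l2 stood at 55.9, 54.1 and 77.0 CPM in Lira161, Lira162 and Lira164 and at 85.4, 70.0 and 75.4 CPM in PBS155, PBS157 and PBS158. Its groups overlapped because Lira164 lay above PBS157 and PBS158 (log2 fold change -0.30 ± 0.15, SE, edgeR adjusted p = 0.23), and it was called lower without Lira164 (adjusted p = 0.0225). Keap1, whose product marks NRF2 for breakdown, was at 73.4, 79.6 and 72.8 CPM against 59.03, 62.6 and 68.3 CPM. Each liraglutide library lay above each PBS library, but the difference of 0.25 ± 0.09 on the log2 scale missed the threshold (adjusted p = 0.129). Exons of Keap1 overlap the antisense gene Gm16754 by 510 bp. Since no source used here names the strand setting of the counting, those reads cannot be assigned.

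The core letters of the antioxidant response element, TGACNNNGC, were searched on both strands in RefSeq promoters (GRCm38.p6, from 250 bases before to 50 bases after the start site), which were held for 38 of the 45 genes. A match was present for 12 of these 38 genes (31.6%), for 17.1% of the 9443 tested genes that have a promoter there, and in 12.4% of all 32851 promoters. Among the 8 genes that fell, 7 had a promoter there and 1, Gsta3, held a match. The matching genes were Gsta3, Gstm5, Gstm7, Mgst1, Gclm, Txnrd1, Srxn1, Prdx1, Sod1, Nfe2l2, G6pdx and Pgd. From these, 5 windows before a start site are shown as examples, picked after the matches were known, from the transferases, glutathione synthesis and the thioredoxin and peroxiredoxin systems. The match lies in 1 of 2 promoters of Gstm7 and in 1 of 3 of Txnrd1. The match is in capitals and reads as its reverse complement for Gclm, Txnrd1 and Prdx1.
Gsta3, chr1:21240439-21240498, plus strand, match 121 bases before the start: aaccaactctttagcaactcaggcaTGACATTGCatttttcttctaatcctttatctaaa
Gstm7, chr3:107931709-107931768, minus strand, match 129 bases before the start: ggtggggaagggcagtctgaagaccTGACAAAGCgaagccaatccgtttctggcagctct
Gclm, chr3:122245398-122245457, plus strand, match 134 bases before the start: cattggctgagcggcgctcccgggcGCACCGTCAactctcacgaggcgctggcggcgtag
Txnrd1, chr10:82859089-82859148, plus strand, match 92 bases before the start: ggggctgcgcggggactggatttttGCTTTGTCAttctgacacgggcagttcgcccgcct
Prdx1, chr4:116685441-116685500, plus strand, match 133 bases before the start: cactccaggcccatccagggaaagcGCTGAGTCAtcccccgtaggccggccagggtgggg
The Prdx1 match also holds the letters of an AP-1 site, TGAGTCA. Of these 5 genes Gsta3 fell, and Gstm7, Gclm, Txnrd1 and Prdx1 did not pass the test. A match of letters is a description and not a measured binding site. Elements with other letters or outside the searched stretch were not looked for, so a gene without a match may still hold one.

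In the alpha class, whose enzymes conjugate aldehydes and other lipid peroxidation products, Gsta3 and Gsta4 fell. Gsta3 (chromosome 1, 21240589 to 21265661, GRCm38) was at 381, 403 and 517 CPM in the liraglutide libraries and at 968, 697 and 1228 CPM in the PBS libraries. The groups were well apart, with Lira164 the highest of the treated and PBS157 the lowest of the controls. The log2 fold change was -1.15 ± 0.21 (2.22-fold lower, edgeR adjusted p = 0.0158), and the call was lost without Lira161 (adjusted p = 0.0679) or Lira162 (0.0777). Gsta4, an enzyme with high activity towards 4-hydroxynonenal (chromosome 9, 78182774 to 78209349), was at 13.6, 14.9 and 14.5 CPM against 21.0, 19.9 and 24.2 CPM. The treated libraries were close to each other and all lay below the controls (-0.60 ± 0.11, adjusted p = 0.0147), a call lost without Lira161 (0.0595), Lira162 (0.0505) or PBS158 (0.0558). Gsta2, in the same cluster on chromosome 9, had the same estimate of -0.60 but a wider error (± 0.31, adjusted p = 0.266), with PBS158 at 11.04 CPM and the other 5 libraries between 3.98 and 6.46 CPM. Its transcripts share 49.8% of their 50-base windows with other genes, among them Gsta1, so its count is uncertain, while for Gsta3 and Gsta4 these shares were 0.273% and 0%.

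Of the 7 mu class genes, which conjugate epoxides and quinones among others, 2 fell. Gstm1, the most abundant of them, was at 380.0, 381 and 374 CPM against 349, 329 and 445 CPM, with the treated libraries inside the control range (0.02 ± 0.13, adjusted p = 0.958). Its sign turned when the 10 most abundant genes were removed or PBS155 or PBS157 was left out. Gstm4 (0.21 ± 0.18) and Gstm5 (0.16 ± 0.22) likewise overlapped between the groups. Gstm6 fell (chromosome 3, 107938847 to 107943749), at 16.0, 15.6 and 16.3 CPM against 31.0, 22.6 and 39.4 CPM. The 3 treated libraries were nearly equal, while the controls spread from PBS157 to PBS158 (-0.96 ± 0.18, adjusted p = 0.0168). This call was lost without Lira161 (0.0708) or Lira162 (0.0777).

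Gstm3 (chromosome 3, 107963696 to 107969283) also fell, at 1.74, 1.66 and 1.00 CPM against 4.14, 2.31 and 6.43 CPM, which rests on 24 to 43 reads in the treated and 54 to 134 in the control libraries. Its log2 fold change of -1.55 ± 0.39 (adjusted p = 0.0424) was called, among the fits with a library left out, only without PBS157 (0.0163), with adjusted p up to 0.123 otherwise, and limma-voom gave 0.0738. It shares 28.8% of its windows with other genes, and its longest identical run is 112 bases with Gstm1 and 125 bases with Gstm6. Gstm7 was at 17.3, 18.6 and 25.7 against 31.8, 27.4 and 39.8 CPM and Gstm2 at 13.0, 13.0 and 8.00 against 16.6, 14.9 and 22.9 CPM. In both genes every treated library lay below every control. Neither passed with edgeR (-0.68 ± 0.18, adjusted p = 0.0578, and -0.68 ± 0.23, adjusted p = 0.105), and both passed with DESeq2 (adjusted p = 0.00882 and 0.0296). Gstm7 was also called without Lira164 (0.00857) or PBS157 (0.0484).

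Among the theta class genes, Gstt3 showed the largest estimated fall of the 44 genes. Gstt3 (chromosome 10, 75774115 to 75781414) was at 4.29, 6.22 and 9.62 CPM against 33.9, 19.7 and 43.1 CPM. PBS157, the lowest control, stood at more than 2 times the highest treated library, Lira164. The log2 fold change was -2.26 ± 0.39 (adjusted p = 0.0242), and the call was lost without Lira161 (0.0630), Lira162 (0.125), PBS155 (0.0733) or PBS158 (0.0586), and also with no filter on low counts (0.0674). Its exons overlap Gm20441 on the same strand by 524 bp, 13.6% of its exon length. Gstt1, its neighbour (75783813 to 75798584), which conjugates small halogenated compounds, was at 89.7, 112 and 151 CPM against 205, 199 and 273 CPM. It fell by 0.94 ± 0.20 on the log2 scale (adjusted p = 0.0298), called among the fits with a library left out only without Lira164 (0.00363) and otherwise with adjusted p up to 0.13. Gstt2 (75831114 to 75837424), in the same cluster, stood the other way at 156, 133 and 115 against 73.4, 108 and 100.4 CPM. Its treated libraries all lay above the controls, but the difference of 0.52 ± 0.16 passed only with DESeq2 (adjusted p = 0.0325) and not with edgeR (adjusted p = 0.0841). Whether Gstt2 differs in response from its neighbours was not tested.

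**Figure D2:**
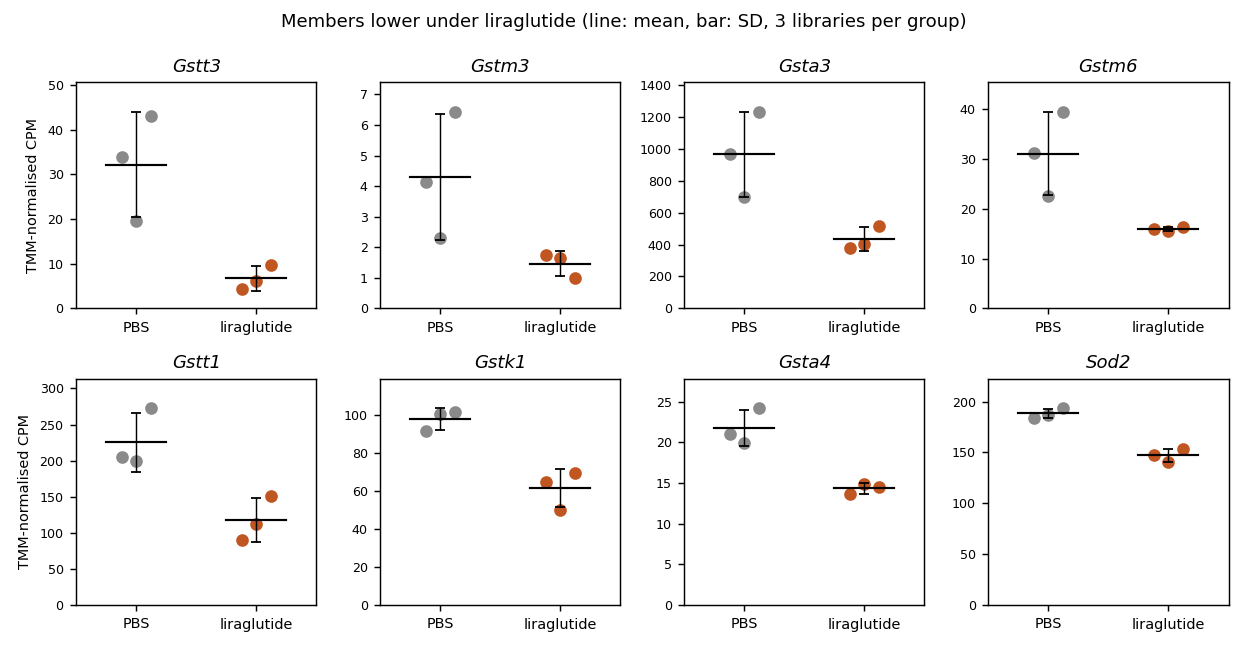
TMM-normalised CPM (y axis, from 0) of the 8 genes that fell, 1 point per library, with the mean as a line and the SD as a bar for 3 libraries per group. In every panel the highest liraglutide library lies below the lowest PBS library, with the widest relative gap for Gstt3 and the narrowest for Sod2.

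Of the other transferases Gstk1 fell and the rest did not pass. Gstk1, the kappa class enzyme of mitochondria and peroxisomes (chromosome 6, 42245935 to 42250447), was at 64.7, 50.2 and 69.8 CPM against 91.5, 101 and 102 CPM. It fell by 0.67 ± 0.13 (adjusted p = 0.0150) and lost its call only when PBS158 was left out (0.0561). Gstp1, the main pi class enzyme, was at 915, 551 and 446 CPM against 637, 987 and 856 CPM. Lira161 stood among the controls and PBS155 among the treated, and the estimate of -0.38 ± 0.28 did not pass (adjusted p = 0.456). Gstp2 had between 13 and 78 reads and shares a run of 423 identical bases with Gstp1, so reads can be exchanged between them. Mgst1, the microsomal transferase, was at 3397.5, 2503 and 2542 CPM against 2446, 3339.6 and 3183 CPM, with full overlap (-0.09 ± 0.17, adjusted p = 0.786). Gsto1 (-0.07 ± 0.11) and Mgst3 (0.43 ± 0.34) overlapped between the groups too.

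Summing the reads of a class takes out any exchange of reads between its listed genes, but not with genes outside the list. The 4 alpha genes together held 401, 422 and 536 CPM in the liraglutide libraries against 995, 723 and 1263.5 CPM, a ratio of the means of 0.456. The 3 theta genes held 249.6, 252 and 276 against 312, 327 and 416 CPM, a ratio of 0.736. In both classes the sums did not overlap between the groups. The 7 mu genes held 488, 484 and 464 against 469, 441 and 605 CPM, and the 2 pi genes 919, 553 and 447 against 638, 988 and 857 CPM, and both sums overlapped. Gsta3 makes up most of the alpha sum and Gstm1 most of the mu sum. Since Gsta3, Gstt1, Gstt2 and Gstt3 share 0% of their windows with other listed genes, the alpha and theta sums say little about exchange.

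Neighbouring genes were compared at the 4 loci that hold several of the transferases, which leaves out Gsta3, Gstk1 and Sod2. Over all tested genes 8.77% were called, and the neighbours at each locus are too few to be told apart from that share. On chromosome 3 the 7 mu genes span 149.1 kb, and the 4 with lower estimates, Gstm7, Gstm6, Gstm3 and Gstm2, follow each other in the cluster, between Gstm5 on one side and Gstm1 and Gstm4 on the other. Gstm6 and Gstm3, the pair that fell, are adjacent. Of 4 other tested genes within 100 kb, 0 were called. On chromosome 10 the 3 theta genes span 63.31 kb, with Gstt3 and Gstt1, which both fell, side by side, and 0 of 7 other tested genes within 100 kb were called, among them Ddt at 0.06 ± 0.11 and Mif at 0.42 ± 0.13. Near the pi genes on chromosome 19, 1 of 9 was called, the aminoacylase gene Acy3 (-0.59 ± 0.15, adjusted p = 0.0395). Near the 3 alpha genes on chromosome 9, 0 of 4 were called.

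**Figure D3:**
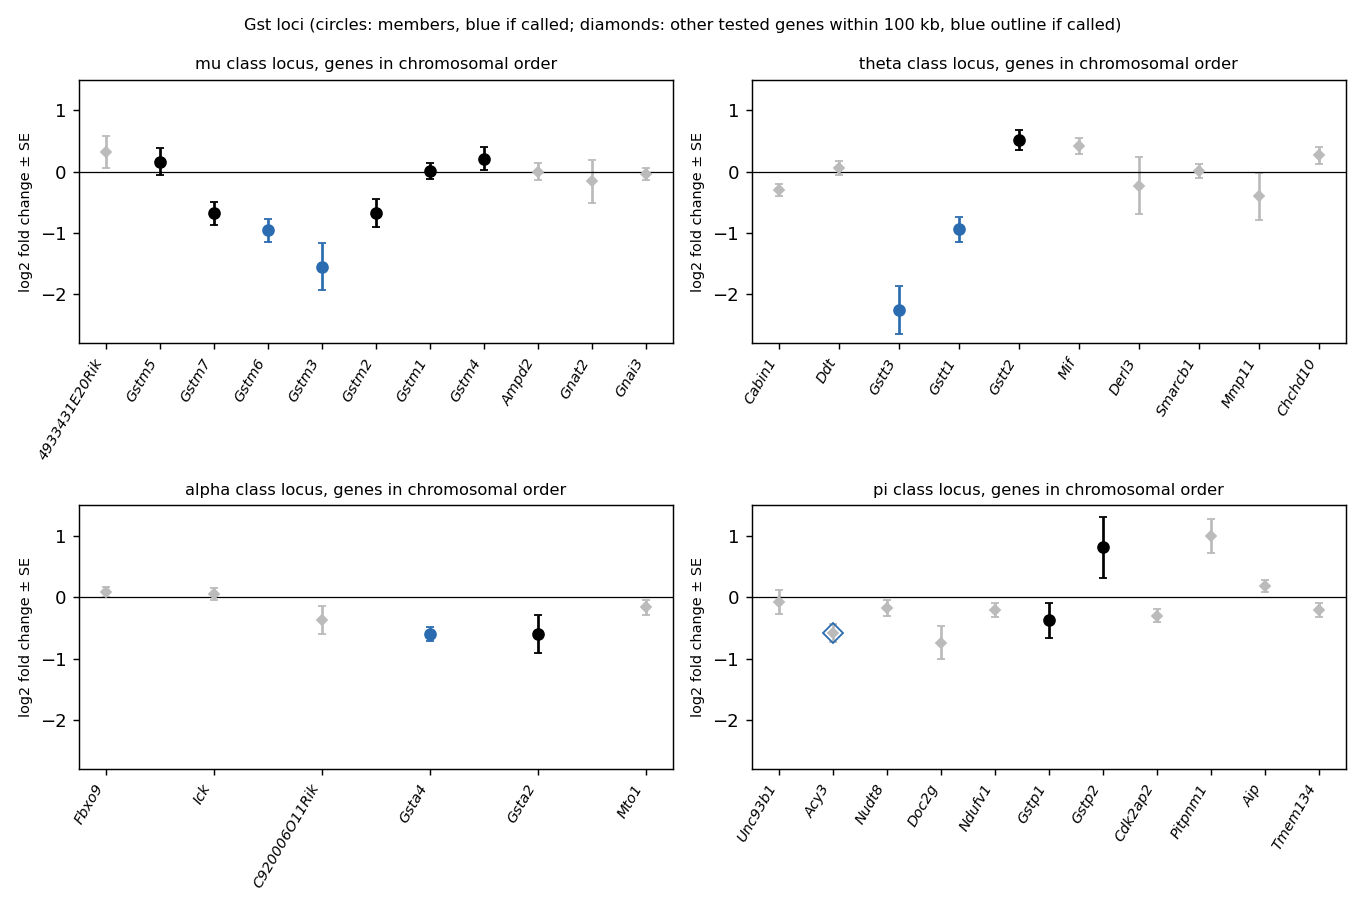
Log2 fold change with SE (y axis) of tested genes at the 4 transferase loci, in chromosomal order (x axis). Circles are transferases, blue where they fell, and diamonds are other genes within 100 kb, of which Acy3 alone was called. Gstm7 to Gstm2 form a run of lower estimates, and Gstt2 lies above 0 beside Gstt1 and Gstt3 below it.

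Genes that make and recycle glutathione did not pass the test. Gclc, the catalytic subunit of the rate-limiting ligase, was at 255, 216 and 245 CPM against 304, 268 and 295 CPM, below the controls in each treated library (-0.28 ± 0.11, adjusted p = 0.147). Gclm, its modifier subunit, gave a similar estimate (-0.29 ± 0.11, adjusted p = 0.137), also without overlap. Gss, the glutathione synthetase, was at -0.12 ± 0.12 and shares exon sequence with Acss2 on the opposite strand (395 bp). Gsr, which reduces oxidised glutathione, was at 0.34 ± 0.13 (adjusted p = 0.14) and was called higher without Lira164 (0.0462). The peroxidases Gpx1 and Gpx4 use glutathione to remove hydrogen and lipid peroxides. Gpx1 was at 2189.9, 1403 and 1412 CPM against 1455.5, 1736 and 1451 CPM, with Lira161 the highest and 2 treated libraries below all controls (0.11 ± 0.19, adjusted p = 0.753). Without Lira161 its estimate turned to -0.14. Gpx4 was at 0.04 ± 0.14, turned to -0.040 without Lira161 and -0.077 without PBS155, and shares 34.7% of its windows with the pseudogene Gpx4-ps2.

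In the thioredoxin system the 3 estimates lay above 0 without a call. Srxn1, the sulfiredoxin that restores overoxidised peroxiredoxins, was at 121, 113 and 56.3 CPM against 42.3, 53.2 and 37.2 CPM. Lira161 and Lira162 stood at more than 2 times every control, and Lira164 lay just above PBS157. The log2 fold change of 1.13 ± 0.30 missed the threshold with edgeR (adjusted p = 0.0743), and passed with DESeq2 (0.000138), with limma-voom (0.0465) and without Lira164 (0.000703). Txnrd1, the cytosolic thioredoxin reductase, was at 160.6, 160.7 and 147 CPM against 129, 131 and 136 CPM, a small difference without overlap (0.24 ± 0.09, adjusted p = 0.127). Txn1 itself overlapped (0.07 ± 0.11, and -0.032 without PBS155).

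The 6 peroxiredoxins, which reduce peroxides with electrons from thioredoxin or glutathione, did not pass the test. Prdx1 was the most abundant, at 743, 688 and 666 CPM against 608, 711 and 704 CPM, with overlap (0.05 ± 0.11, adjusted p = 0.809, and -0.030 without PBS155). Prdx6, the form that works with glutathione and GST pi, was at 476, 375 and 466 CPM against 551, 571 and 601 CPM. The groups did not overlap, yet the estimate of -0.39 ± 0.12 passed only with DESeq2 (adjusted p = 0.0279) and not with edgeR (0.083). Prdx5 (-0.38 ± 0.13) overlapped and was called lower without PBS155 (adjusted p = 0.033). Its exons overlap Trmt112 on the opposite strand by 409 bp. Prdx2, Prdx3 and Prdx4 had log2 fold changes between -0.26 and 0.07, all overlapping, and that of Prdx3 turned from 0.07 to -0.025 without PBS155.

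Of the superoxide dismutases, which turn superoxide into hydrogen peroxide, Sod2 fell. It was at 148, 141 and 153 CPM against 184, 187 and 194 CPM (chromosome 17, 13006846 to 13040063). Both groups were tight and well apart, and the change was small (-0.36 ± 0.09, 1.28-fold, adjusted p = 0.0420). Among the fits with a library left out it was called only without Lira164 (0.0465), with adjusted p up to 0.159 otherwise, and it was not called with library totals (0.0658) or without the low-count filter (0.0542). Sod2 shares 21.0% of its windows with other annotated genes. The cytosolic Sod1 was at 576, 529 and 493 CPM against 506, 586 and 622 CPM, with overlap (-0.10 ± 0.12, adjusted p = 0.639), and the secreted Sod3 was at 0.20 ± 0.13.

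The 3 enzymes often used as readouts of NRF2 and of xenobiotic receptors had estimates above 0 that did not pass. Ephx1, the microsomal epoxide hydrolase, was at 755, 604 and 450.2 CPM against 344, 412 and 398 CPM, with each treated library above the controls and Lira164 the nearest to them. Its log2 fold change of 0.65 ± 0.18 had an edgeR adjusted p of 0.0569, and passed with DESeq2 (0.0050), with library totals (0.0372), without the low-count filter (0.0326) and without Lira164 (0.00722). Nqo1, a quinone reductase, was low at 3.30 to 6.32 CPM and its groups overlapped between Lira164 and PBS158 (0.60 ± 0.21, adjusted p = 0.115). Hmox1, which breaks down haem and in liver is also expressed by macrophages, ranged from 5.38 to 18.4 CPM among the controls alone (0.54 ± 0.41, adjusted p = 0.467). The summed Kupffer cell and macrophage markers stood at 545, 226 and 141 CPM in PBS155, PBS157 and PBS158, the same order as Hmox1. Under liraglutide they stood at 486, 310.5 and 467 CPM in Lira161, Lira162 and Lira164, where Hmox1 was at 19.6, 15.7 and 15.6 CPM, so that Lira164 had more of the markers than Lira162 and no more Hmox1. Their part in the Hmox1 values was not tested. The pentose phosphate genes G6pdx (0.51 ± 0.27) and Pgd (0.11 ± 0.13) overlapped, with Pgd at 29.3, 24.7 and 21.6 CPM against 22.2, 22.0 and 25.6 CPM and at -0.0094 without Lira161.

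In all, the groups did not overlap for 5 of the 44 genes in the higher direction (Srxn1, Ephx1, Gstt2, Keap1 and Txnrd1) and 13 in the lower, against 14.9% and 16.4% of all tested genes (31.3% in either direction). The 5 higher genes are thus no larger a share than the background.

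**Figure D4:**
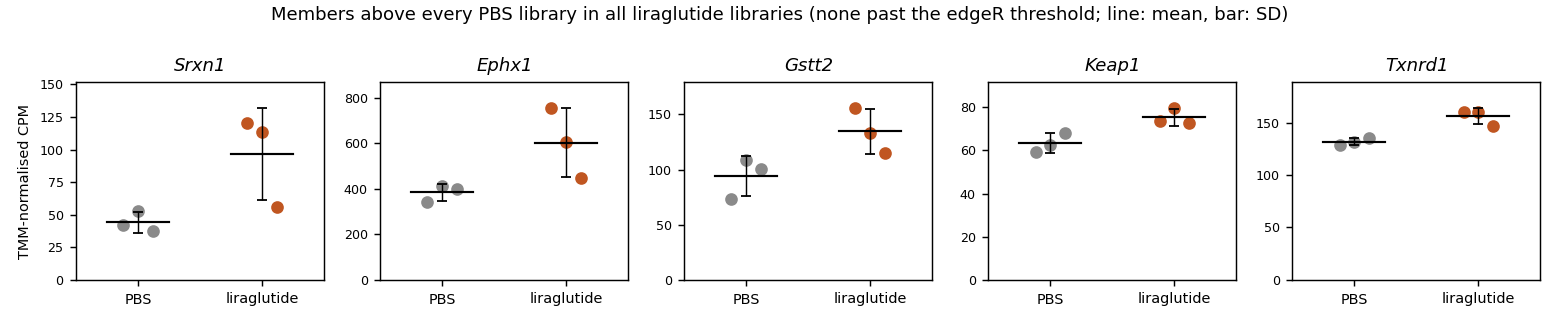
TMM-normalised CPM (y axis, from 0) of the 5 genes whose liraglutide libraries all lay above every PBS library, 1 point per library, with the mean as a line and the SD as a bar. None passed the edgeR threshold, and for Srxn1 and Ephx1 the lowest liraglutide point, Lira164, sits close to the controls.

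Compared per kb of exon, Mgst1, Gpx1 and Gstp1 had the highest levels under PBS, at 1485, 1074 and 534 CPM per kb. Gstm1 followed at 254, Gsta3 at 222 and Prdx1 at 222 CPM per kb. Gsta3 stood at rank 5 in this order, and at 99.9 CPM per kb under liraglutide. Of the genes that fell, Gstt1 was the next most abundant (148 against 76.9 CPM per kb) and Gstm3 the least (3.28 against 1.12 CPM per kb). The genes that fell thus lay between rank 5 and rank 41 of the 45.

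**Figure D5:**
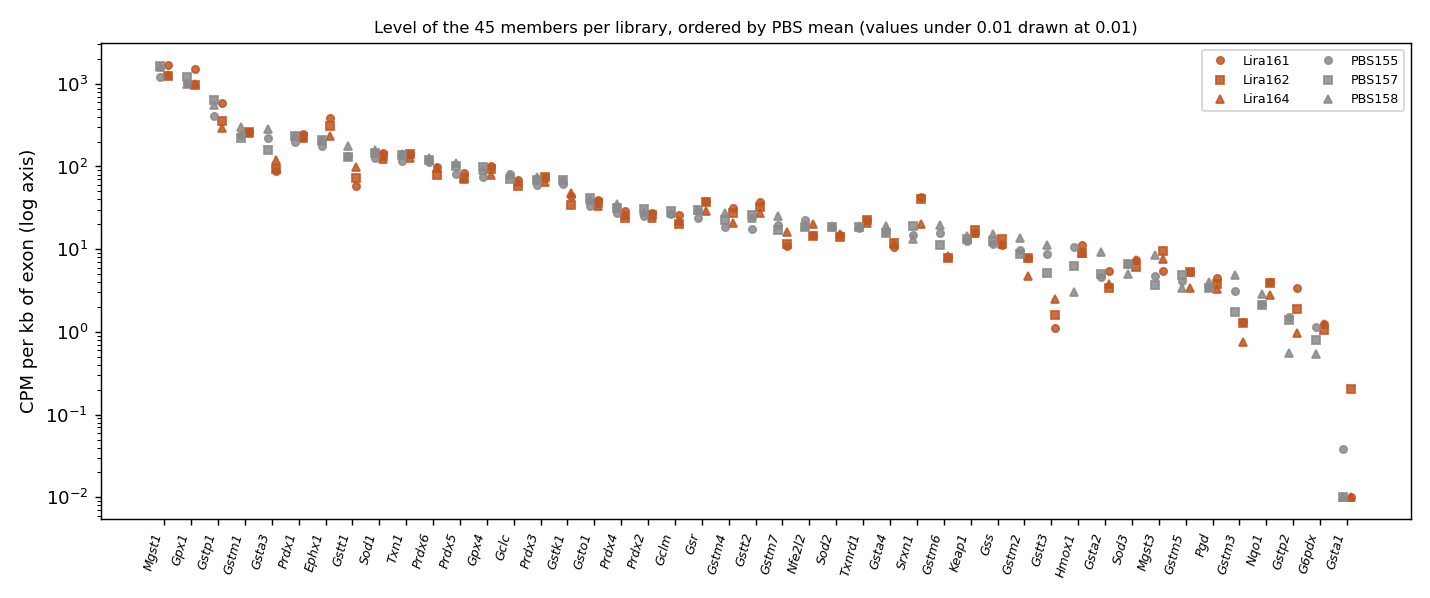
Level of each of the 45 genes in CPM per kb of exon (y axis, log scale) in each library, ordered along the x axis by the PBS mean, with libraries at 0 (Gsta1) drawn at the bottom. Grey points are PBS and orange points liraglutide libraries, and the orange points lie apart below the grey for Gsta3, Gstt1, Gstt3 and Gstm6.

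Other genes on these pathways were taken from 6 lists with 163 tested genes in all. Of the 163, 12 rose and 17 fell (17.8% called), with a median log2 fold change of -0.054. Over all tested genes 4.08% rose and 4.69% fell (8.77% called). The lists too were chosen with earlier results of these data known, so these shares are no test of them. Leaving out Lira161, Lira162, Lira164, PBS155, PBS157 or PBS158 gave 6, 5, 17, 7, 8 and 9 higher and 7, 8, 24, 10, 12 and 6 lower genes. Over all tested genes the same fits called 462, 393, 1496, 962, 653 and 414 in either direction. Of 32 other glutathione genes, 2 rose and 3 fell (15.6% called). Chac2, which breaks down glutathione, fell by 0.83 ± 0.14 and kept its call in all 6 fits with a library left out. Glrx, a glutaredoxin (0.73 ± 0.15), and Oplah, the 5-oxoprolinase that recovers glutamate from glutathione breakdown (0.47 ± 0.11), rose, and Gpx6 fell (-2.08 ± 0.53), at a mean of 0.338 against 1.504 CPM. The call of Glrx was lost when Lira161, Lira162 or PBS157 was left out (adjusted p up to 0.0805), Oplah in all but the fit without Lira164 (up to 0.123) and Gpx6 in all but the fit without PBS157 (up to 0.131).

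Of 33 other NRF2 targets and regulators, 3 rose and 2 fell (15.2% called). Blvrb, a biliverdin reductase (0.66 ± 0.11), and Maff, a small Maf partner of NRF2 (0.91 ± 0.16), rose and were called in all 6 fits with a library left out. Ces1g (-1.87 ± 0.34) and Ces2g (-0.60 ± 0.12), carboxylesterase genes with close paralogs, fell. Leaving out Lira162 or any of the 3 PBS libraries ended the call of Ces1g (highest adjusted p 0.124), and leaving out Lira161, Lira162 or PBS158 that of Ces2g (highest 0.0714). Of 40 other peroxide and thiol genes, 2 rose and 3 fell (12.5% called). Txnip, the thioredoxin-binding protein, rose by 1.48 ± 0.17 in every such fit, and Ucp2, a mitochondrial carrier also abundant in macrophages, rose by 0.85 ± 0.17. Nqo2 (-0.70 ± 0.15) and the xanthine dehydrogenase gene Xdh (-0.52 ± 0.13) fell. Ucp2 lost its call without Lira161, Lira162 or PBS155 (adjusted p up to 0.0816), and Nqo2 and Xdh without Lira161, Lira162, PBS155 or PBS158 (up to 0.0922 and 0.158).

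Of 17 NADPH supply genes, 3 rose and 1 fell (23.5% called). Aldh1l1, a folate enzyme that yields NADPH, fell by 1.28 ± 0.12, and Nnt, the mitochondrial transhydrogenase (0.71 ± 0.11), and Me1, malic enzyme (0.55 ± 0.10), rose, all 3 in every fit with a library left out. These are RNA counts, and neither working enzyme nor NADPH was measured. Nadk, the NAD kinase, rose by 0.47 ± 0.10 and was called only without Lira164 among those fits (adjusted p up to 0.101). Of 18 cysteine genes, 1 rose and 4 fell (27.8% called). Gnmt (-0.93 ± 0.12), a glycine methyltransferase of the methionine cycle, Slc3a1 (-1.10 ± 0.14), a subunit of a cystine transporter, and Mpst (-0.62 ± 0.10), a mercaptopyruvate sulfurtransferase, fell in every such fit. Sqor, the sulfide oxidase, fell by 0.71 ± 0.14, a call that ended when Lira161, Lira162 or PBS158 was left out (up to 0.0777). Of 23 genes of the xenobiotic receptors CAR, PXR and AhR, 1 rose and 4 fell (21.7% called). Papss2, which makes the sulfate donor, fell by 0.75 ± 0.12 in every such fit, Cyp1a2, an AhR target, by 1.42 ± 0.27 and Sult1d1, a sulfotransferase, by 0.51 ± 0.12, while Por, the reductase of microsomal P450s, rose by 0.74 ± 0.17. Cyp1a2 lost its call without Lira161, PBS155 or PBS158 (adjusted p up to 0.0893), Sult1d1 without Lira161, Lira162, PBS157 or PBS158 (0.0951) and Por without Lira161, Lira162, PBS155 or PBS158 (0.109). The called genes outside the naming rule were Gstz1 (-0.44 ± 0.12), Selenok (-0.35 ± 0.09) and Ces2a (-1.46 ± 0.29), which fell, and Mafk (0.53 ± 0.12) and Csad (1.10 ± 0.21), which rose. Each of these 5 lost its call without Lira161 and in at least 3 other such fits, with adjusted p up to 0.171.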

How the data were processed

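For each gene and library the authors deposited a raw read count, a whole number with no normalisation, in a table of 23412 symbols and 6 libraries. STAR and mm10 are named in the submitters' processing notes. No source used here gives the counting tool, annotation, strand setting, versions or handling of multi-mapped reads. Columns carry a group name and a number found in no triplicate label, and were assigned to groups only.

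Genes were filtered with filterByExpr (12626 kept), scaled by TMM and tested with edgeR 4.0.16 under R 4.3.3 (estimateDisp, robust glmQLFit, glmQLFTest, group as the only term), with two-sided p-values, Benjamini-Hochberg adjustment over all tested genes and a threshold of 0.05. The SE is the log2 fold change divided by the square root of F. The procedure was tested on simulated counts. DESeq2 1.42.0 and limma 3.58.1 served as alternatives. Positions, exon lengths, exon overlaps and 50-base windows shared between transcripts come from GENCODE M21 (GRCm38), promoters from RefSeq. The read length is not given, so 50 bases is a chosen value. Total counts of 20888991 to 27007182 limit the precision of low genes.

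The genes and lists were chosen with earlier results of these data known. A gene got the value of every library if it was called by edgeR, DESeq2 or limma-voom, was Nfe2l2 or Keap1, or was the most abundant of its class. Of the other lists, up to 4 called genes with the smallest p were named. An older symbol had to be used for 12 list genes, and 10 are not in the table.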

Additional observations from a re-analysis of the deposited data

How the results depend on the processing

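No paired analysis was possible because the columns carry none of the triplicate numbers. Under DESeq2 size factors, upper quartile factors, library totals, no low-count filter, a mean CPM of at least 5, limma-voom and removal of the 10 most abundant genes, between 6 and 8 of the 45 genes were lower. DESeq2 called 3 higher (Srxn1, Ephx1 and Gstt2) and 11 lower, and called 28 of the other pathway genes lower against 17. Of all genes it called 1621 of 13330 (12.2%), against 1107 of 12626 (8.77%) with edgeR. With library totals 1 gene was higher (Ephx1), with no filter 1 (Ephx1) and with limma-voom 1 (Srxn1). With the reads of each transferase class summed, 2 of the genes that were left as single rows were lower (Sod2 and Gstk1), since fewer genes of the list were then tested. Library totals put 57.2% of all called genes higher against 46.5% with TMM. With a library left out the number of lower genes ran from 1 to 9 and of higher ones from 0 to 3, the other pathway genes from 5 to 17 higher and 6 to 24 lower, and all called genes from 393 to 1496 against 1107. The cause was not tested. Of the 44 estimates 37 kept their sign in every fit, and the 7 that changed it were not called. Gstm1 went to -0.00064 without the 10 most abundant genes and, with a library left out, ran from -0.071 (without PBS157, and -0.047 without PBS155) to 0.158. Over the same fits Gpx1 ran from -0.14 (without Lira161) to 0.211, Prdx1 from -0.030 (without PBS155) to 0.0904 and Pgd from -0.0094 (without Lira161) to 0.201. The others were Gpx4 (-0.040 without Lira161 and -0.077 without PBS155), Txn1 (-0.032 without PBS155) and Prdx3 (-0.025 without PBS155). Depth limits Gsta1, Gstm3, Gstp2 and G6pdx most, with at most 134 reads per library.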

Other observations

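Some other redox genes, picked after their values were seen, missed the threshold with edgeR and passed it with DESeq2. Cat, the peroxisomal catalase, was at 2423, 1843.5 and 2153 CPM in Lira161, Lira162 and Lira164 and at 2966, 2914 and 3284 CPM in PBS155, PBS157 and PBS158, with no overlap. Its log2 fold change was -0.51 ± 0.14, with an edgeR adjusted p of 0.0506 and a DESeq2 adjusted p of 0.00221. The metallothionein genes Mt1 and Mt2, whose products bind zinc and copper, were also below every control. Mt2 was at 10.7, 9.88 and 2.83 against 25.8, 39.2 and 29.1 CPM (-2.01 ± 0.49, edgeR adjusted p = 0.0668, DESeq2 0.00550). Mt1 was at 27.0, 34.2 and 13.4 against 43.3, 70.0 and 64.2 CPM (-1.25 ± 0.37, edgeR adjusted p = 0.0995, DESeq2 0.000183).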
